A study of Homo sapiens with 3 samples.

Results

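The genes described are 37 nuclear receptors, chosen by name, with the retinoic acid receptors, the retinoid X receptors and the NR4A receptors left aside. All 37 had at least 1 transcript on the array, 87 transcripts in all, among 42947 named transcripts of 23595 genes. RNA came from HaCaT, a human epidermal keratinocyte line that immortalized spontaneously, and was read on single-colour NimbleGen arrays labelled with Cy3. Control cells had no ATRA, and ATRA cells received 1 µM all-trans retinoic acid, the acid form of vitamin A, for 36 h. ATRA+NIC cells received ATRA at the same dose together with NIC, taken here as nicotinamide, the amide of niacin. The time given is 36 h for every condition. There was 1 array per condition and none of NIC alone, and the sources used here do not state the dose of NIC or when it was added. With 1 array per condition there is no spread between cultures and no test. Differences are therefore described by a rule of size, at least 2-fold, and every value is that of 1 RNA sample from 1 cell line.

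Nuclear receptors are transcription factors that bind DNA through a pair of zinc fingers and, in most cases, change their activity when a small lipid-soluble ligand enters a pocket in the carboxy-terminal domain. Receptors for fatty acids, vitamin D, thyroid hormone, oxysterols, bile acids and xenobiotics usually pair with a retinoid X receptor, steroid receptors pair with themselves, and REV-ERB and ROR receptors can bind DNA alone. In epidermis, vitamin D receptor, peroxisome proliferator-activated receptors (PPAR), liver X receptors (LXR) and glucocorticoid receptor are known for roles in keratinocyte differentiation, barrier lipids and inflammation.

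Promoter sequences are shown for the REV-ERB pair NR1D1 and NR1D2, whose levels were higher on the ATRA array than on both others, and for NR5A2, which had the largest difference of all 37 genes. They are from RefSeq on GRCh38.p14 and cover 250 bases before and 50 after an annotated start, and 33 of the 37 genes matched the table (VDR, NR2F6, HNF4G and NR0B2 did not). Capitals mark matches on either strand to AGGTCA (the half-site most of these receptors bind), TAGGTCA (the core of a ROR element, which contains the half-site), CACGTG (the E-box bound by the clock activators), TGANTCA (the AP-1 site), TGACGTCA (the cAMP response element) or GCGTGGGCG (an EGR site).
NR1D1, chr17:40100540-40100839, minus strand: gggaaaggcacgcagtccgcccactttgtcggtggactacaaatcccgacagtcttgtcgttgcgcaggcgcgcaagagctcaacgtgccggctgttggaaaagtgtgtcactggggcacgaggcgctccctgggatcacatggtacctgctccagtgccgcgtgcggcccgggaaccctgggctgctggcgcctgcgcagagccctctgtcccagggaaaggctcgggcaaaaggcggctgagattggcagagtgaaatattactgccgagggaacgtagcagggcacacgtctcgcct
NR1D2, chr3:23945871-23946170, plus strand: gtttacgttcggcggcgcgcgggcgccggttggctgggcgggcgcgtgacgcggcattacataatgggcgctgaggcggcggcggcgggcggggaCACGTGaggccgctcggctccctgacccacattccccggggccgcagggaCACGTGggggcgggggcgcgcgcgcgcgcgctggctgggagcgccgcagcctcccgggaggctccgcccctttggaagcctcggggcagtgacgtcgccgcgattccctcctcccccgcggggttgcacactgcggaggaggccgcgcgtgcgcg
NR5A2, chr1:200027460-200027759, plus strand: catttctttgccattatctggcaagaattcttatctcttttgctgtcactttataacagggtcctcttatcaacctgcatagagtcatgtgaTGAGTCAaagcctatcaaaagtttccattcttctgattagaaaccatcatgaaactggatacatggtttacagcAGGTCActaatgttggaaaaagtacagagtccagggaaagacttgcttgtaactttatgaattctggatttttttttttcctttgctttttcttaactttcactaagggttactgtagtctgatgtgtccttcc
The NR1D2 window held 2 E-boxes, which begin 155 and 105 bases before the start, and the other start listed for NR1D2 had none of the 6 motifs. In the NR5A2 window, an AP-1 match begins 158 and a half-site 84 bases before the start, and the other start listed for NR5A2 again had none. No match was found in the NR1D1 window. Of all 35116 promoter windows in the table, 13.8% held the half-site, 1.85% the ROR core, 7.26% the E-box, 7.71% the AP-1 site, 1.85% the cAMP element and 0.795% the EGR site. Of the 33 matched receptor genes, some of them with several starts, 8 had the half-site in a window, 6 the E-box and 5 the AP-1 site. Counts here are per gene, over 80 windows in all, whereas the shares above are per window, so they cannot be set side by side. These matches describe letters in a window and were not tied to binding here.

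The 3 arrays had like overall levels in the deposited RMA values, which does not show how they compared before that processing. Random probes, which match no human transcript, read 18.4 to 19.6, and 73.8% to 74.2% of named transcripts reached an intensity of 50, which every transcript in the authors' value table reaches on all arrays. A gene level is the mean log2 intensity of its transcripts, and a gene passed the level filter when that mean reached 7.95, the median over all genes and arrays, on at least 1 array. By this rule 17 of the 37 receptor genes passed, beside 12467 of 23595 genes. Of the other 20, 14 had at least 1 transcript at 50 or more on an array, and 6 had none (NR1H4, NR2E1, ESR1, ESRRG, NR5A1 and NR0B2), with highest intensities of 20.7 to 38.7. Each transcript was read by 3 probes, and transcripts of a gene can share sequence, so they are not independent readings. In the 11 receptor genes that passed with more than 1 transcript, the log2 differences scattered around their gene's mean with a pooled SD of 0.25 (ATRA against Control), 0.26 (ATRA+NIC against ATRA) and 0.24 (ATRA+NIC against Control), which covers scatter within these arrays and none between cultures.

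**Figure D1:**
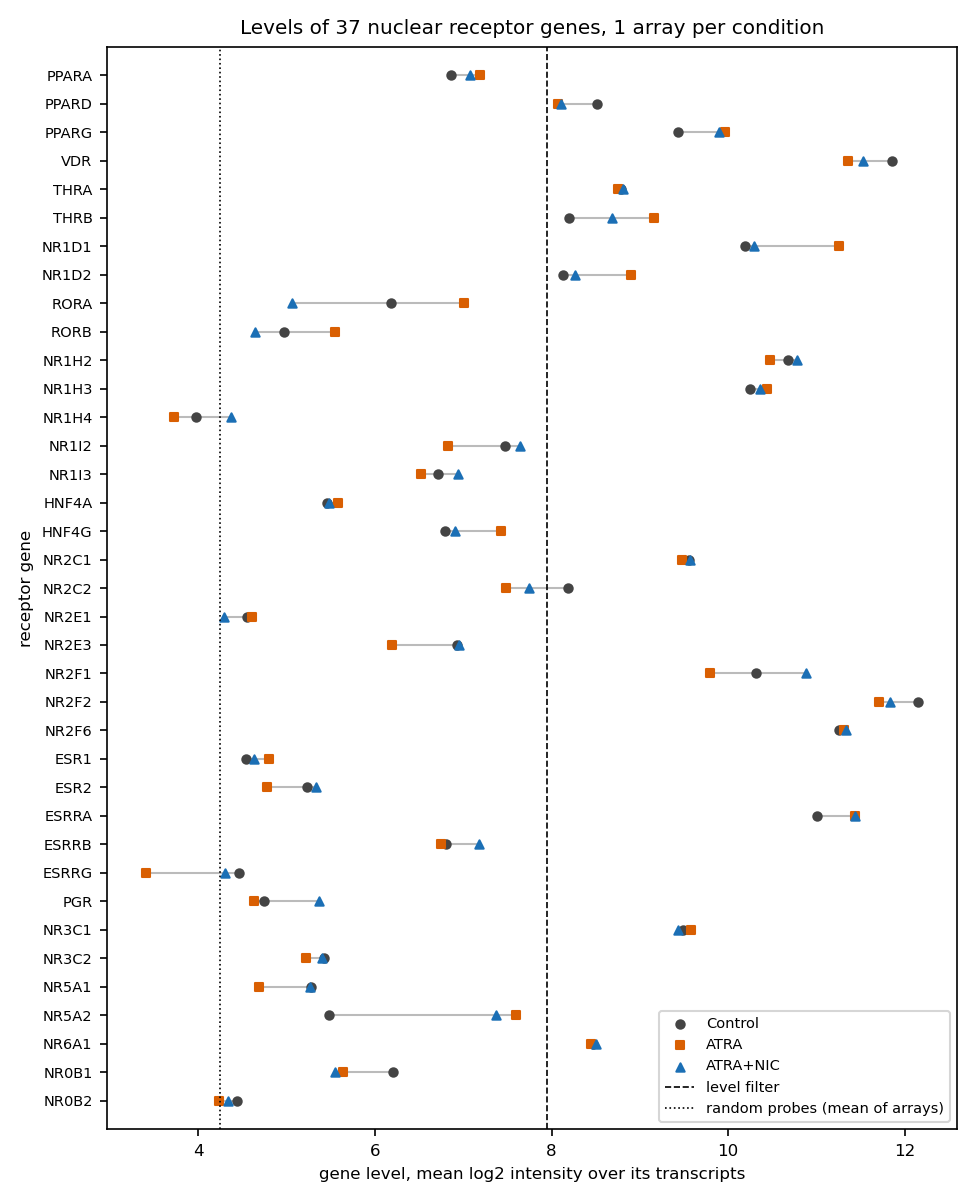
Gene level (mean log2 intensity, horizontal axis) of each of the 37 receptor genes, with 1 point for each array (Control, ATRA, ATRA+NIC), a dashed line at the level filter of 7.95 and a dotted line at the random probes. NR1D1 and NR1D2 stand higher on ATRA than on both other arrays, NR5A2 is low on Control alone, and most receptor genes have 3 points close together.

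Few of these receptors differed by 2-fold. For ATRA against Control, 1 of the 17 was at least 2-fold higher (NR1D1) and 0 lower, where 3.83% of 12467 genes were higher and 2.06% lower. Their median log2 difference was -0.02, beside -0.04 for all genes past the filter, and the quartiles were -0.44 and 0.43, beside -0.29 and 0.23. For ATRA+NIC against ATRA, 1 of 17 was at least 2-fold higher (NR2F1) and 0 lower, beside 1.35% and 3.74% of all genes, with medians of 0.04 and 0.05. For ATRA+NIC against Control, 0 of 17 reached 2-fold in either direction, beside 1.03% higher and 0.971% lower of all genes, with medians of 0.08 and -0.01. These comparisons share arrays, 2 by 2, so they are not independent of each other. With 17 genes, 1 past 2-fold is near the background and no result about the family.

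Counted by transcript, 62 of the 87 reached an intensity of 50 on at least 1 array. For ATRA against Control, 6 of these were at least 2-fold higher and 3 lower, beside 5.61% and 4.05% of 33694 named transcripts at that level. The higher ones belonged to NR5A2 (both of its transcripts), NR1D1, THRB, RORB and HNF4A, and the lower ones to ESR2, NR1I3 and NR2E3. For ATRA+NIC against ATRA, 5 were higher (ESR2, ESRRB, NR1I3, PGR and NR2F1) and 2 lower (RORA and RORB), beside 3.47% and 5.52%. For ATRA+NIC against Control, 3 were higher (PGR and both of NR5A2) and 1 lower (RORA), beside 2.74% and 2.73%. In HNF4A, ESR2, NR1I3, PGR and RORB, at least 1 other transcript of the gene differed in the opposite direction. Some of these transcripts reached 50 only on the array where they were high, and several differences rest on readings under 50. With intensities under 50 set to 50, a setting added after seeing the data, 4 transcripts stayed higher and 2 lower for ATRA against Control (RORB, HNF4A and ESR2 dropped out), beside 4.29% and 2.86% of transcripts. In the comparison of ATRA+NIC with ATRA, 4 stayed higher and 1 lower (PGR and RORB dropped out), beside 2.06% and 4.26%. In that of ATRA+NIC with Control, 2 stayed higher, both of NR5A2, and 0 lower (PGR and RORA dropped out), beside 1.53% and 1.55%.

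**Figure D2:**
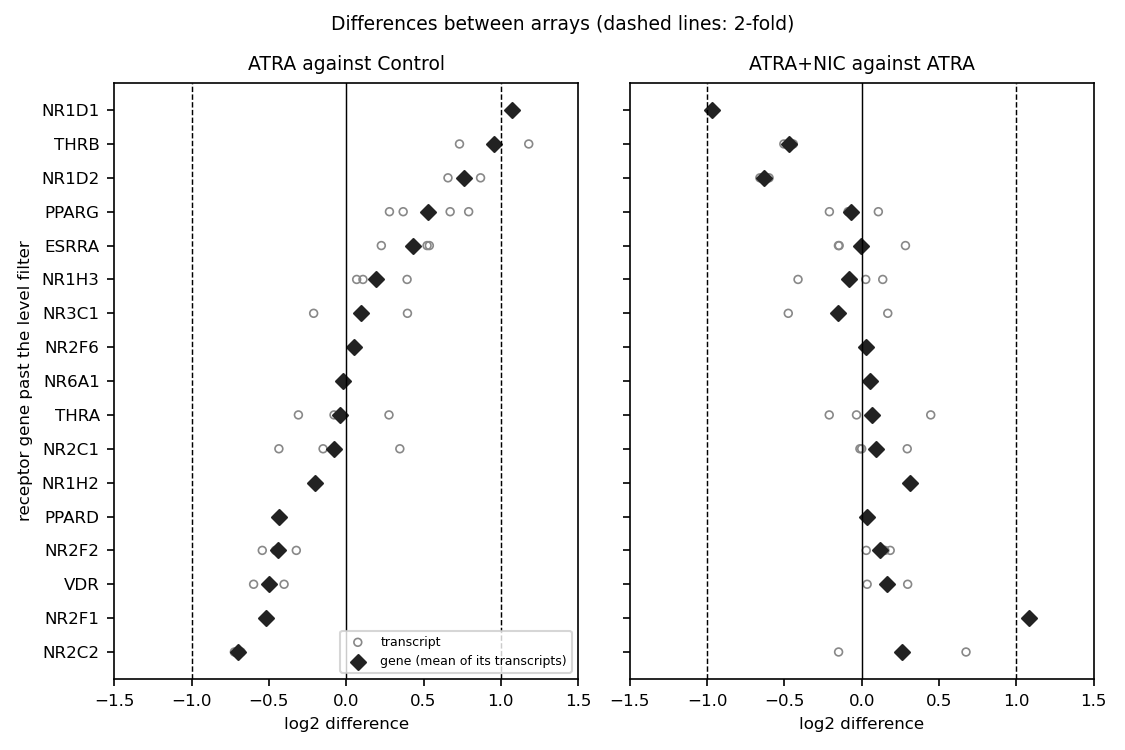
Log2 difference of the 17 receptor genes past the level filter in 2 panels, ATRA against Control (left) and ATRA+NIC against ATRA (right), with a filled diamond for the gene and an open circle for each transcript, and dashed lines at 2-fold. NR1D1 passes 2-fold on the left and NR2F1 on the right, at log2 differences of 1.07 and 1.08, and the 2 transcripts of THRB lie on either side of the 2-fold line on the left.

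Both REV-ERB genes, receptors of the circadian clock, were higher on ATRA than on the other arrays. NR1D1 encodes REV-ERB alpha, a haem-binding repressor of the core clock gene BMAL1, and lies on chromosome 17 at 35502566 to 35510499 of hg18. Its single transcript read 1167 on Control, 2457 on ATRA and 1255 on ATRA+NIC, so the ATRA array was high and the other two lay close together. This is 2.11-fold higher on ATRA than on Control, a difference exceeded by 418 of the 12467 genes, and 1.96-fold lower on ATRA+NIC than on ATRA. NR1D2, on chromosome 3 at 23961809 to 23996241, encodes the related repressor REV-ERB beta. One of its transcripts read 286, 522 and 331 on Control, ATRA and ATRA+NIC, and the other read 276, 435 and 287. Both were highest on ATRA, and the gene was 1.70-fold higher there than on Control and 1.55-fold lower on ATRA+NIC than on ATRA.

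ROR receptors, which activate the elements that REV-ERB represses, were dim. The RORA transcript read 72.4, 128 and 33.4 on Control, ATRA and ATRA+NIC and did not pass the level filter. With readings under 50 set to 50, it was at least 2.57-fold lower on ATRA+NIC than on ATRA and at least 1.45-fold lower than on Control. Its level on ATRA was 1.77-fold that on Control. The 2 transcripts of RORB read 23.7 and 41.6 on Control, 90.1 and 24.3 on ATRA, and 20.7 and 30.1 on ATRA+NIC, so only 1 of 6 readings exceeded 50.

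NR1D1 overlaps its neighbour THRA, the gene of thyroid hormone receptor alpha, over 1081 bases at 35502566 to 35503646 of chromosome 17, and the labelling protocol does not say that strand was kept, so reads of the shared stretch might not be told apart. THRA had log2 levels of 8.79, 8.75 and 8.82 on Control, ATRA and ATRA+NIC. Its 3 transcripts differed in sign, from 413 to 391, from 350 to 424 and from 593 to 479 between Control and ATRA. The last of these ends before the overlap, and the other two run through it. Thus the gene-level difference was -0.04 where that of NR1D1 was 1.07.

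Thyroid hormone receptor beta, encoded by THRB on chromosome 3 at 24139235 to 24511317, stood just short of the size rule. One transcript read 291, 658 and 485 on Control, ATRA and ATRA+NIC, and the other read 299, 496 and 350. Both were lowest on Control and highest on ATRA, by 2.27-fold and 1.66-fold against Control, and the gene difference was 1.94-fold. ATRA+NIC stood between them, 1.40-fold above Control. The antisense gene THRB-AS1, which overlaps THRB over 923 bases, had dim levels of 5.68, 4.91 and 4.95. Among 9 genes of thyroid hormone handling and response only HR, a corepressor of the thyroid receptor, passed the filter, with a difference of 0.10 for ATRA against Control. The deiodinase genes DIO1, DIO2 and DIO3, whose products activate or inactivate thyroid hormone, had log2 levels between 4.15 and 5.39 on all arrays.

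The vitamin D receptor gene VDR, on chromosome 12 at 46521586 to 46585081, was lower on both treated arrays. Its brighter transcript read 5687, 4305 and 4410 on Control, ATRA and ATRA+NIC, and the other read 2426, 1602 and 1969. Control was highest in both, and the gene was 1.41-fold lower on ATRA and 1.26-fold lower on ATRA+NIC than on Control.

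Among the PPAR genes, PPARG, whose product drives adipocyte and sebocyte lipid programmes, was higher on both treated arrays in all 4 transcripts. They read 354, 880, 945 and 777 on Control, 457, 1524, 1148 and 1238 on ATRA, and 493, 1318, 1079 and 1174 on ATRA+NIC. The gene was 1.44-fold higher on ATRA and 1.38-fold higher on ATRA+NIC than on Control. PPARD, the PPAR gene best known in keratinocyte wound response, had 1 transcript, which read 366, 270 and 277, so Control was high and the treated arrays close together. PPARA, a regulator of fatty acid oxidation, had log2 levels of 6.86, 7.20 and 7.07 under the filter, with all 4 transcripts higher on ATRA than on Control.

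The sterol sensors stayed close to Control. NR1H2, the gene of LXR beta, read 1638, 1423 and 1764 on Control, ATRA and ATRA+NIC in its only transcript. NR1H3, that of LXR alpha, had log2 levels of 10.25, 10.44 and 10.36. Differences of both genes against Control stayed between -0.20 and 0.19. The xenobiotic sensor genes NR1I2 (pregnane X receptor) and NR1I3 (constitutive androstane receptor) were under the filter. NR1I2 had log2 levels of 7.48, 6.83 and 7.65, with ATRA lowest. NR1I3 had 6.72, 6.52 and 6.94, but its 6 transcripts spread widely, from 22.8 to 689 on Control, and it shares 8500 bases with TOMM40L, whose level of 7.78, 7.10 and 8.23 was also lowest on ATRA. Whether the 2 genes are read apart was not tested. NR1H4, the bile acid receptor gene, stayed at or under 20.7.

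COUP-TF receptors, orphan receptors that can compete with retinoid receptors for their DNA elements, included the gene past 2-fold in the nicotinamide comparison. NR2F1, on chromosome 5 at 92944798 to 92955544, read 1278 on Control, 892 on ATRA and 1887 on ATRA+NIC in its single transcript. ATRA was lowest and ATRA+NIC highest. The latter was 2.12-fold above ATRA, a difference exceeded by 116 of 12467 genes, and 1.48-fold above Control. NR2F2, its close relative, had 3 transcripts that read 4585, 4985 and 4163 on Control, 3667, 3630 and 2858 on ATRA, and 3742, 4125 and 3171 on ATRA+NIC. Every transcript was highest on Control, and the gene was 1.36-fold lower on ATRA. NR2F6 stood at log2 levels of 11.26, 11.31 and 11.34.

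The testicular receptor genes NR2C1 and NR2C2, whose products bind direct repeats shared with retinoid receptors, passed the filter. NR2C2 had the most negative difference of the 17 for ATRA against Control, -0.70, with transcripts at 818 and 104 on Control, 495 and 65.1 on ATRA, and 791 and 58.7 on ATRA+NIC. Both were lower on ATRA than on Control, but on ATRA+NIC the brighter one was back near Control and the dimmer one was not. NR2C1 had levels of 9.56, 9.48 and 9.57, with transcripts that differed in sign. HNF4A, a liver and gut regulator, had 7 transcripts that all lay under 100 on all arrays, with gene levels of 5.46, 5.58 and 5.48. HNF4G had 6.80, 7.43 and 6.90, highest on ATRA in both transcripts. The retinal receptor gene NR2E3 had 6.92, 6.20 and 6.95, lowest on ATRA in both transcripts.

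Steroid receptors were nearly all dim in these cells, with the glucocorticoid receptor gene as the exception. NR3C1 read 1224, 1058 and 1189 on Control, ATRA and ATRA+NIC in one transcript and 424, 558 and 402 in the other, so the pair went opposite ways. Its gene levels were 9.49, 9.59 and 9.43, within the scatter of transcripts. NR3C2, the mineralocorticoid receptor gene, had levels of 5.42, 5.21 and 5.40. The oestrogen receptor genes ESR1 (4.53, 4.79 and 4.63) and ESR2 (5.23, 4.78 and 5.34) and the progesterone receptor gene PGR (4.75, 4.63 and 5.37) were under the filter.

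The oestrogen-related receptor gene ESRRA, whose product works with PGC-1 coactivators on mitochondrial genes, was higher on both treated arrays. Its 3 transcripts read 1554, 2432 and 2332 on Control, 1819, 3530 and 3351 on ATRA, and 2213, 3180 and 3029 on ATRA+NIC. Control was lowest in each, and the gene was 1.35-fold higher on ATRA and 1.34-fold higher on ATRA+NIC. ESRRB had levels of 6.80, 6.75 and 7.18 under the filter. The ESRRG transcript read 21.9, 10.6 and 19.7, all near the random probes, so no fold is given.

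NR5A2 had the largest difference of the 37 genes, although it stayed under the level filter. It encodes liver receptor homologue 1, a receptor of phospholipids known in liver, gut and embryonic stem cells, and lies on chromosome 1 at 198263352 to 198413175. One transcript read 38.1 on Control, 167 on ATRA and 160 on ATRA+NIC, and the other read 52.0, 226 and 171. Control was low and both treated arrays were high in each. With readings under 50 set to 50, the gene was at least 3.81-fold higher on ATRA and at least 3.25-fold higher on ATRA+NIC than on Control, and ATRA+NIC was 1.17-fold below ATRA. Without the level filter, 113 of 23595 genes had a greater measured difference for ATRA against Control. Its relatives NR5A1 (5.27, 4.68 and 5.27), which drives steroidogenic genes, and the corepressor-like receptors NR0B1 (6.21, 5.64 and 5.55) and NR0B2 (4.43, 4.24 and 4.33) were dim. NR6A1, the germ cell nuclear factor gene, stood at 8.47, 8.45 and 8.51. The 11 classical targets of bile acid receptor, HNF4A and NR5A2, among them CYP7A1, ABCB11 and SLC51B, were all under the filter on every array.

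**Figure D3:**
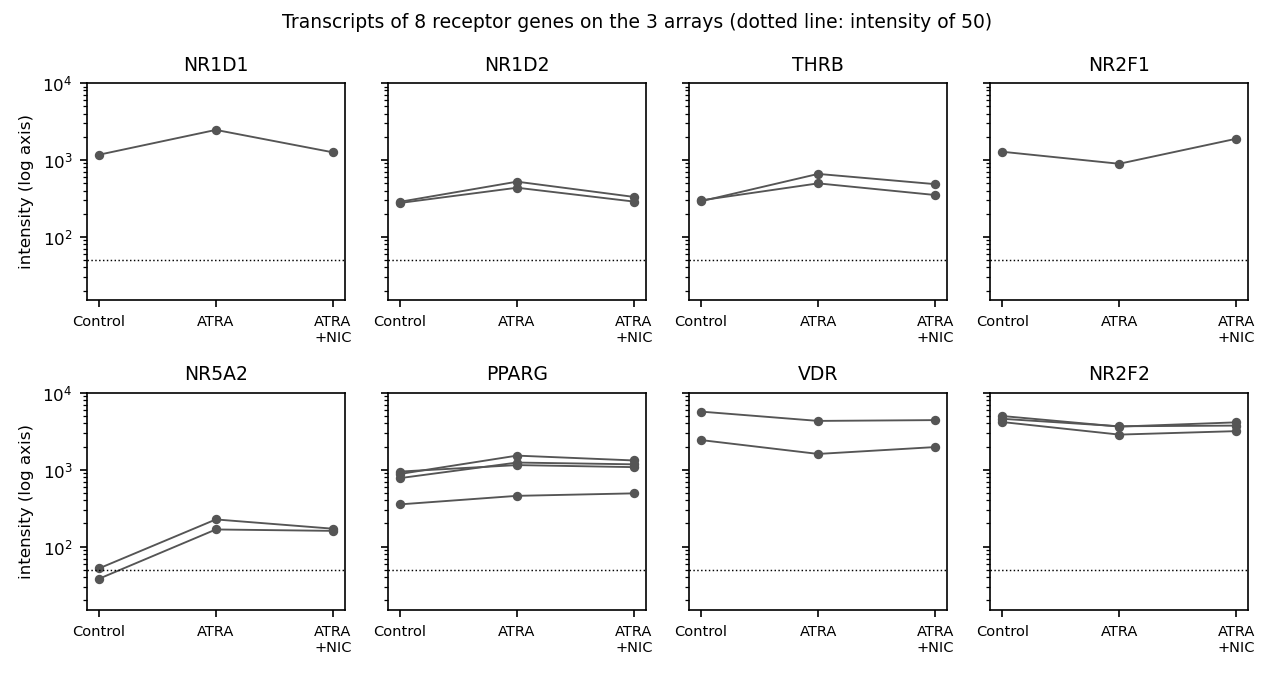
Intensity (log axis) of every transcript of 8 receptor genes across the 3 arrays, with 1 line per transcript and a dotted line at 50. Lines of NR1D1, NR1D2 and THRB peak on ATRA, those of NR5A2 start near 50 and stay high on both treated arrays, and NR2F1 is lowest on ATRA.

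No partner or coregulator gene past the filter reached 2-fold in any comparison. RXRA, the main heterodimer partner in epidermis, had log2 levels of 11.11, 10.68 and 11.08 on Control, ATRA and ATRA+NIC, and RXRB had 11.48, 11.30 and 11.39. Of 19 coactivator genes 16 passed the filter, and 0 of these reached 2-fold in any comparison, with a median of 0.01 for ATRA against Control (-0.07 for ATRA+NIC against ATRA). KAT2B, a coactivator gene under the filter at 5.74, 6.57 and 6.96, was 2.33-fold higher on ATRA+NIC than on Control. NCOA5 (-0.56) and the p160 coactivator gene NCOA2 (-0.48) had the greatest differences for ATRA against Control, and NCOA5 (0.62) and the mediator gene MED1 (-0.47) for ATRA+NIC against ATRA. All but 1 of 15 corepressor genes passed and 0 reached 2-fold, with medians of -0.26 and 0.08. NRIP1, a ligand-dependent corepressor gene, was 1.76-fold higher on ATRA than on Control. SIN3A, a scaffold gene of histone deacetylase complexes, had a mean difference of -0.91, but its bright transcript read 4993 on Control and 4886 on ATRA, and the difference came from a dim one at 64.8 and 18.8. With intensities under 50 set to 50 it was at least 1.15-fold lower. For ATRA+NIC against ATRA the greatest were CTBP2 (-0.57) and GPS2 (0.48).

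Several lists of known receptor targets held genes past 2-fold, to be read beside the shares of all genes given above. Among the clock genes read by REV-ERB and ROR, 12 of 15 passed the filter, and 2 were at least 2-fold higher and 0 lower on ATRA than on Control, with a median of 0.52. These were NFIL3 (2.13-fold), a repressor of the D-box, and BHLHE41 (2.11-fold), a repressor of E-boxes. BMAL1 had log2 levels of 8.17, 8.91 and 7.65. On ATRA+NIC against ATRA, 3 were at least 2-fold lower and 0 higher, NFIL3 (3.22-fold), BHLHE40 (2.78-fold) and BMAL1 (2.39-fold), with a median of -0.24. BHLHE41 instead stood at 8.46, 9.54 and 10.02 and was 2.94-fold higher on ATRA+NIC than on Control, the only gene of the list past 2-fold in that comparison. BMAL1 and NR1D1 were thus both highest on ATRA.

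Of 13 vitamin D receptor targets 8 passed, with 2 at least 2-fold higher and 0 lower on ATRA than on Control and a median of 0.87. They were IGFBP3 (3.74-fold), which encodes a binding protein of insulin-like growth factors, and THBD (2.14-fold), the thrombomodulin gene. On ATRA+NIC against ATRA, THBD was 3.21-fold lower, and the list median was -0.54. IGFBP3 was still 2.07-fold higher on ATRA+NIC than on Control. CYP24A1, the vitamin D hydroxylase gene and a classical target of VDR, was under the filter at 6.20, 7.57 and 5.31.

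Glucocorticoid receptor targets had 11 of 14 past the filter, with 4 at least 2-fold higher and 0 lower on ATRA than on Control (median 0.93). They were SERPINA3 (12.3-fold), DUSP1 (7.52-fold), ZFP36 (5.61-fold) and SGK1 (4.28-fold), of which DUSP1, ZFP36 and SGK1 are also known as early-response genes. On ATRA+NIC against ATRA the same 4 were at least 2-fold lower, by 3.39-fold, 12.5-fold, 6.44-fold and 2.53-fold, with a list median of -0.63. They did not all return to Control. SERPINA3 was still 3.63-fold higher on ATRA+NIC than on Control, the only gene of the list past 2-fold in that comparison. SGK1 was 1.69-fold higher, and DUSP1 and ZFP36 were 1.66-fold and 1.15-fold lower. FKBP5, a classical target of the receptor, differed by -0.22 and 0.32 in these comparisons, and TSC22D3 by 0.95 and -0.63.

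Of 21 PPAR targets 11 passed, with 1 at least 2-fold higher and 0 lower on ATRA than on Control (median -0.06). This was ANGPTL4, an inhibitor of lipoprotein lipase, at 4.30-fold, and it was 7.25-fold lower on ATRA+NIC than on ATRA, where UCP2, a mitochondrial carrier gene, was 2.46-fold lower. Of 13 LXR targets 6 passed, and MYLIP, which encodes a ligase that degrades the LDL receptor, was 4.16-fold higher on ATRA than on Control, and 3.77-fold lower on ATRA+NIC than on ATRA. The sterol regulator gene SREBF1 was 1.86-fold higher on ATRA. The LXR list medians were 0.12 and 0.07.

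Of 14 targets of oestrogen-related receptors 12 passed, and 1, PERM1, a muscle regulator of that programme, was at least 2-fold lower on ATRA than on Control (2.38-fold), with 0 higher and a median of -0.11. PERM1 was 2.27-fold higher on ATRA+NIC than on ATRA, where the list had a median of 0.24. All 12 had a difference above 0 there, beside 55.8% of all genes past the filter, but those of IDH3A and ATP5F1B rounded to 0.00. Of 12 oestrogen receptor targets 6 passed, with STC2 (2.89-fold) and XBP1 (2.25-fold) higher on ATRA than on Control. On ATRA+NIC against ATRA, STC2 (3.66-fold), XBP1 (2.62-fold) and MYC (2.29-fold) were lower. The list medians were 0.64 and -1.02. All ESR1 transcripts and all but 1 of ESR2 read under 50. STC2 and XBP1 are also genes of the unfolded protein response, and what lay behind the differences of this list was not tested. Of 11 targets of xenobiotic sensors 3 passed and 0 of these reached 2-fold, ALAS1 having the greatest differences among them (0.56 and -0.51). ABCB1, a drug transporter gene under the filter, stood at 5.58, 7.77 and 6.03 on Control, ATRA and ATRA+NIC. It was at least 4.04-fold higher on ATRA than on Control and at least 3.27-fold lower on ATRA+NIC than on ATRA. Among 19 genes of ligand synthesis and breakdown 7 passed and 0 of these reached 2-fold. STS, the steroid sulfatase gene, differed by 0.84 between ATRA and Control, and HSD11B2, which inactivates cortisol, by 0.82 for ATRA+NIC against ATRA.

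**Figure D4:**
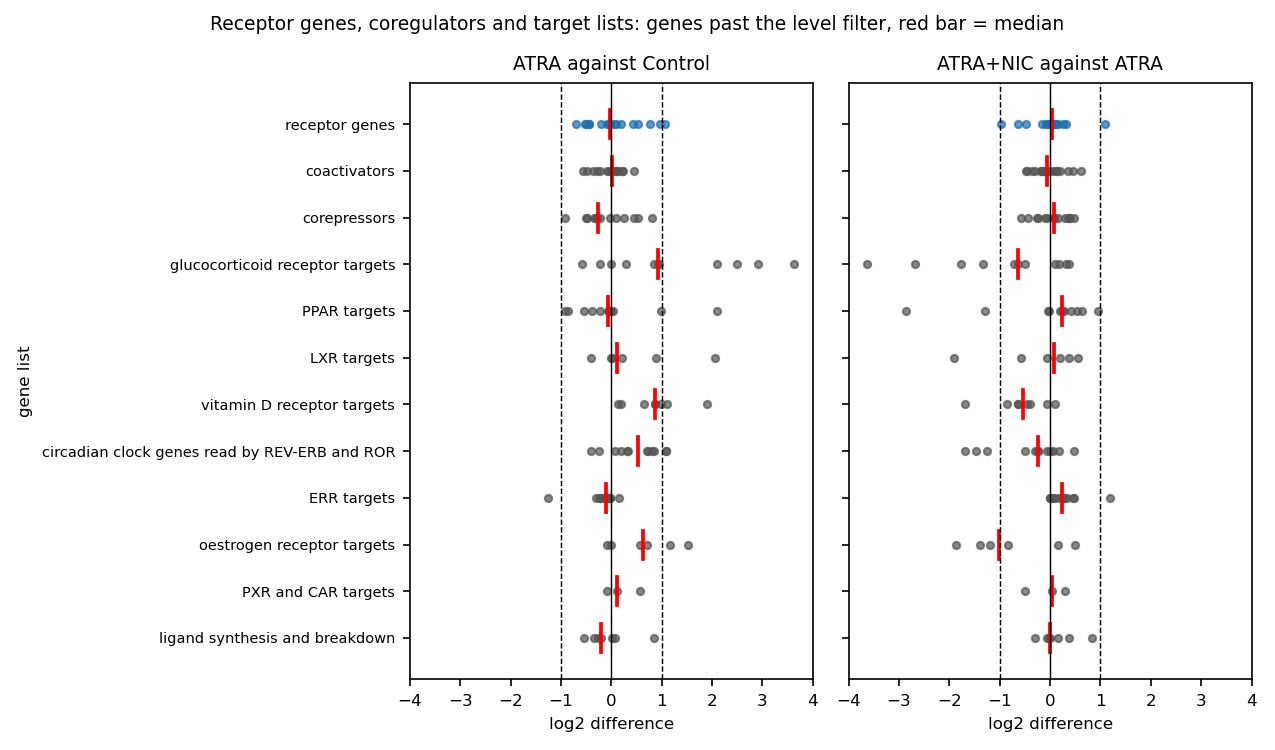
Log2 difference of each gene past the level filter, with a red bar at the median, for the receptor genes (blue, top) and for coregulator, target and ligand lists with at least 3 such genes (grey), in 2 panels, ATRA against Control (left) and ATRA+NIC against ATRA (right), with dashed lines at 2-fold. Receptor and coregulator genes lie mostly inside the 2-fold lines, and the glucocorticoid receptor targets reach 3.62 on the left and -3.64 on the right.

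Markers of other cell types were checked beside these results. All 11 keratinocyte markers passed the filter, and their summed intensity was 140860 on Control, 114794 on ATRA and 96198 on ATRA+NIC. The markers did not move together. For ATRA against Control 4 were higher and 7 lower, from 0.92 (DSG3) to -1.57 (KRT5). For ATRA+NIC against ATRA 3 were higher and 8 lower, TP63 (2.70-fold) and DSG3 (2.54-fold) the most. Only 1 of 7 melanocyte markers and 2 of 8 fibroblast markers passed. Leukocyte markers had 4 of 8 past the filter and summed to 2550, 4858 and 3011, highest on ATRA like NR1D1, NR1D2 and THRB. CD68, a lysosomal gene of macrophages, made up 69.6%, 70.0% and 77.7% of these sums. The defining leukocyte gene PTPRC was under the filter at 5.07, 7.24 and 4.21, CD3E passed it at 7.97, 8.97 and 6.14, and LYZ was lowest on ATRA at 6.87, 6.23 and 6.43. Endothelial markers had 1 of 6 past the filter and summed to 360, 2729 and 3434, low on Control like NR5A2. On the treated arrays most of that sum was CDH5 (7.70, 11.31 and 11.67). CLDN5 was also lowest on Control, at 4.91, with measured differences of 1.41 for ATRA and 1.09 for ATRA+NIC against it. These rest on a dim Control reading, and the gene was at least 1.60-fold higher on ATRA and at least 1.28-fold higher on ATRA+NIC. PECAM1 stood at 4.44, 5.62 and 4.63, and VWF at 6.02, 5.29 and 5.81. The endothelial genes KDR (3.89, 3.86 and 3.49) and TEK (4.28, 3.60 and 3.84) were near or below the random probes. The part of other cells in the receptor differences was not tested, and in bulk RNA fewer cells of a type and less RNA per cell cannot be told apart.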

How the data were processed

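Total RNA of HaCaT cells was measured on 3 arrays, 1 per condition. The authors deposited RMA intensity values on a linear scale per transcript, 3 probes each, per the file headers, placed on human build hg18. Which software made them is not stated in the sources used here. A column headed as a standard error was not used, since its unit is undefined. The authors' value table holds the same intensities for the 31275 transcripts at 50 or more on all arrays.

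Here values were taken to log2 without further scaling, 2086 transcripts without a gene name were left out, and transcripts were averaged per gene. Symbols outside the receptor list were updated through Entrez numbers to a RefSeq table of GRCh38.p14. The level filter was set at the median over genes and arrays, a log2 of 7.95. Where a gene's transcript lay under 50, the gene's fold was also computed with values under 50 set to 50, and a fold written as "at least" is that value; counts of transcripts are given both ways. All 37 receptor genes are described. Of each coregulator, target and ligand list the text names the genes past the filter at least 2-fold different in ATRA against Control or ATRA+NIC against ATRA. Where there were none, it names up to 2 with the greatest difference. A few classical targets were picked after their values were seen. Cell type markers, and list genes under the filter, are named only in part, so some at least 2-fold different are not named. No columns of other samples were in the files. The members and lists were chosen with earlier results of these data known, and the motifs and the promoters shown after the values had been seen. The number of arrays limits the precision. Python 3.11.15, numpy 2.4.6, pandas 2.3.3 and matplotlib 3.10.9 were used. Alternatives are in the closing section.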

Additional observations from a re-analysis of the deposited data

How the results depend on the processing

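No paired analysis was possible because each condition has 1 array. Under 9 alternatives (brightest or median transcript, an offset of 100, intensities under 50 set to 50, no filter, a filter at the 75th percentile, centred arrays, the value table, and transcripts at 50 or more on at least 1 array), NR1D1 and NR2F1 kept their 2-fold differences, but each has a single bright transcript that only the offset (1.01 and 1.00 on the log2 scale) and the centring (1.07 and 1.10) could move. With the brightest transcript of each gene, 2 receptor genes were at least 2-fold higher on ATRA, since THRB joined NR1D1. Without the filter all 37 genes entered: 2 were higher and 1 lower for ATRA against Control (NR5A2 joined NR1D1, and ESRRG lies near the random probes), 1 lower for ATRA+NIC against ATRA (RORA), and 1 higher and 1 lower for ATRA+NIC against Control (NR5A2 and RORA). The number past the filter was 8 at the 75th percentile and 11 in the value table, since these keep fewer genes or transcripts. Of 510 single-gene differences, 284 were identical, many of them because the setting could not move them, 15 moved by more than the scatter of transcripts, and 0 that had reached 2-fold changed sign. With the offset of 100, NR5A2 was 1.03 on the log2 scale for ATRA against Control and fell under 2-fold at 0.87 for ATRA+NIC against Control. RORA was -1.36 for ATRA+NIC against ATRA and -0.53 for ATRA+NIC against Control with intensities under 50 set to 50, and -0.78 and -0.37 with the offset. Counted by transcript with intensities under 50 set to 50, the number lower was 1 for ATRA+NIC against ATRA and 0 for ATRA+NIC against Control. Low signal limits NR5A2 and RORA.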
